A study of Mus musculus with 6 samples.

Results

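Aminoacyl-tRNA synthetases are the enzymes that attach each amino acid to its transfer RNA. The 36 mouse genes described here are the 20 that encode the cytosolic enzymes and the 16 that encode the mitochondrial ones, taken by gene symbol and not by any measured value. They are 36 of the 55263 genes to which the deposited counts were assigned, and 35 of them were among the 17113 genes with enough counts to test. The libraries were made from bone marrow-derived macrophages (BMDM), phagocytes grown from mouse marrow, in a study of a hyaluronic acid nanomedicine for psoriasis. They fell into 3 groups of 2 libraries: LPS+HACA, which received both agents, LPS, which received lipopolysaccharide alone, and control, whose libraries the labels call wild type. LPS is a bacterial cell wall component that activates macrophages through the receptor TLR4. HACA stands as an abbreviation in the labels, and no dose, time, strain, sex or age is stated there. Whether the 2 libraries of a group came from different animals or cultures is not stated either, so p-values reflect the scatter among these libraries alone, which may be technical.

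A cell needs separate sets of synthetases for the ribosomes of the cytosol and for those inside the mitochondrion, and nuclear genes encode both. Most mitochondrial enzymes have a gene of their own, named with a trailing 2, while Gars and Kars each make both forms of their enzyme. Several cytosolic enzymes sit together in the multisynthetase complex around small scaffold proteins. When amino acids run short, uncharged tRNA activates the kinase GCN2, and the transcription factor ATF4 then raises many genes of amino acid uptake and synthesis, among them genes of cytosolic synthetases. The DNA element through which ATF4 acts, the amino acid response element, carries the letters TTGCATCA.

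Promoter windows are shown first because that element was looked for in them. RefSeq windows of 300 bases (GRCm38.p6), running from 250 bases before the annotated start to 50 bases after it, were found for 13 of the 20 cytosolic and 14 of the 16 mitochondrial genes. The letters TTNCATCA, read on both strands, stood in windows of 5 of the 13 cytosolic genes and 0 of the 14 mitochondrial genes. Counted per window, they stood in 3.97% of 32851 windows of all genes. The stricter form TTGCATCA, which TTNCATCA includes, stood in windows of 4 of the 13 cytosolic genes and 0 of the 14 mitochondrial genes. Its share of all windows was 0.895%. The 5 windows with a match are printed below, 5′ to 3′ in the direction of the gene, with the matching letters in capitals. The window of Tars2, the mitochondrial partner of Tars, is set beside them as one without a match.
Aars: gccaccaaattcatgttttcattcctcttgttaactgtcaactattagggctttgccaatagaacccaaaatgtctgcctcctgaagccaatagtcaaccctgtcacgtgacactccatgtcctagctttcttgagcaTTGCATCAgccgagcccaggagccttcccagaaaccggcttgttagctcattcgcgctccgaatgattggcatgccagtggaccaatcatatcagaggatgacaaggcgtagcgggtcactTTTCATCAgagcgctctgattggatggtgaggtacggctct
Gars: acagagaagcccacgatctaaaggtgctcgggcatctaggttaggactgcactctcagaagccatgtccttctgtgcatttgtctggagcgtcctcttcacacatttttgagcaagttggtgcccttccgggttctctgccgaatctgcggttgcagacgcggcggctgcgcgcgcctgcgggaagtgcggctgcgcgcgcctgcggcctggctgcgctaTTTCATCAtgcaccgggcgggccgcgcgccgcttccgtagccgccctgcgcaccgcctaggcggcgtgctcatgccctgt
Iars: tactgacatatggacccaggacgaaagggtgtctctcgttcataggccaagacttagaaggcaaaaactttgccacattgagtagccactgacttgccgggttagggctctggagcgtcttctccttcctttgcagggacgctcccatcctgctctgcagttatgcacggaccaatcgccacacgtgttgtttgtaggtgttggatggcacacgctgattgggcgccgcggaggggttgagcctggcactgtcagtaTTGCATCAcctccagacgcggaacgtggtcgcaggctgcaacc
Tars: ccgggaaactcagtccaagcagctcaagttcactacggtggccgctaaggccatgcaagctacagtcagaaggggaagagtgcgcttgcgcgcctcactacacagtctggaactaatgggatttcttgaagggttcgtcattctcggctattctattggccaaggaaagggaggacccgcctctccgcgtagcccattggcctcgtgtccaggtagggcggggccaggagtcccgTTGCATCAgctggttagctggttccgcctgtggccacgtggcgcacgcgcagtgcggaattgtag
Yars: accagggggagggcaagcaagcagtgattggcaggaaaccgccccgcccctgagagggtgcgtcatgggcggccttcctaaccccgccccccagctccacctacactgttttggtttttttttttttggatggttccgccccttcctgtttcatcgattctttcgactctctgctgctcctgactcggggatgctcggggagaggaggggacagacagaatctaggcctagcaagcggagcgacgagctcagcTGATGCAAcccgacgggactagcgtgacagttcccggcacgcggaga
Tars2: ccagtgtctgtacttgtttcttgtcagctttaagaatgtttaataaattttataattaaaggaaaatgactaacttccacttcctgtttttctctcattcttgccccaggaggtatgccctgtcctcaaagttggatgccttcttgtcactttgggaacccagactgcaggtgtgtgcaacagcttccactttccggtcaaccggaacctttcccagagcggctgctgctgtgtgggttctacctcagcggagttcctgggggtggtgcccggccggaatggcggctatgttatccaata
The windows lie at chr8:111033592-111033891 on the plus strand (Aars), chr6:55037751-55038050 on the plus strand (Gars), chr13:49681880-49682179 on the plus strand (Iars), chr15:11399609-11399908 on the minus strand (Tars), chr4:129189653-129189952 on the plus strand (Yars) and chr3:95754928-95755227 on the minus strand (Tars2). Counting from 1 at the annotated start, with the base before it as -1, the matches began at -112 and 10 in Aars, at -30 in Gars, at 8 in Iars, at -15 in Tars and at 4 in Yars. The match in Yars reads on the strand opposite to the gene. Of these genes, Aars, Gars, Iars and Yars were higher in LPS libraries than in control libraries, as described below, and Tars, with a log2 fold change of 1.14, did not pass the test. Of the 8 cytosolic genes whose windows had no match, Eprs and Kars were also higher in LPS. Cars, Hars, Lars, Rars and Wars, which were higher in LPS too, had no window in this search. A match, or its lack in these 300 bases, is a description of letters and not of binding. Motifs linked to interferon and STAT signalling were looked for in the same way. The interferon motif was GAAA followed by 2 free bases and GAAA. Among the member windows used, it stood in that of Qars alone (3.44% of all windows). The STAT motif TTCNNNGAA stood in those of Aars, Kars and Nars2 (8.30% of all windows).

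Total counts per library were 13933604 and 13007575 in LPS+HACA, 12529874 and 15379496 in LPS, and 13806911 and 13036776 in control. The deposited counts are per transcript and were summed per gene. Nearly all of them, 99.3%, lay in transcripts with at least 100 bases that no other transcript shares, so a gene with many overlapping isoforms was measured over a small part of its exons, and a change in isoform use cannot be told apart from a change in expression. Values below are CPM, counts scaled to library size with TMM factors, which depend on how many own bases a gene has, so CPM is compared between libraries and not between genes. In bulk RNA, fewer cells of a type and less RNA per cell cannot be told apart. Macrophage markers summed to between 31610 and 54552 CPM in the 6 libraries. T and NK cell markers summed to 0.338 CPM or less, with Cd3e, Nkg7 and Ncr1 at 0, and erythroid markers to 0.121 CPM or less. Of 7 neutrophil markers 2 were at 0 in every library (S100a9 and Ly6g), as were 2 of 6 B and plasma cell markers, while the others were detected at the levels given further on.

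In LPS-treated macrophages 11 cytosolic synthetase genes rose and 3 mitochondrial ones fell. Of the 20 cytosolic genes, 11 were higher in LPS than in control and 0 were lower (edgeR's quasi-likelihood test, Benjamini-Hochberg adjusted p under 0.05), where 15.9% of all genes tested were called higher. Of the 15 mitochondrial genes tested, 0 were higher and 3 were lower, where 14.3% of all genes tested were called lower, so the mitochondrial count stood near that of all genes. At an unadjusted p under 0.05, 13 cytosolic genes were higher and 0 lower, and 0 mitochondrial genes were higher and 5 lower. DESeq2 called 10 cytosolic genes higher and 0 lower, and 0 mitochondrial genes higher and 3 lower. The median log2 fold change was 1.31 over the cytosolic genes and -0.66 over the mitochondrial genes, beside -0.05 over all genes tested. Scaling by library totals moved the median of all genes to -0.69, the cytosolic median to 0.66 and the mitochondrial median to -1.27. With that scaling 6 cytosolic genes were called higher, 2, Farsb and Qars, were called lower, and 8 mitochondrial genes were called lower. Relative to the median of all genes, the cytosolic median was 1.36 higher with TMM scaling and 1.35 higher with library totals, and the mitochondrial median differed from it by -0.61 and -0.58. With either control library left out, 6 cytosolic genes were higher, and without control replicate 1 and control replicate 2, 3 and 2 mitochondrial genes were lower. Without LPS replicate 1, 5 mitochondrial genes were lower and their median was -1.43. With each library left out in turn, the medians ran between 0.998 and 1.68 for cytosolic genes and between -1.43 and -0.65 for mitochondrial genes.

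**Figure D1:**
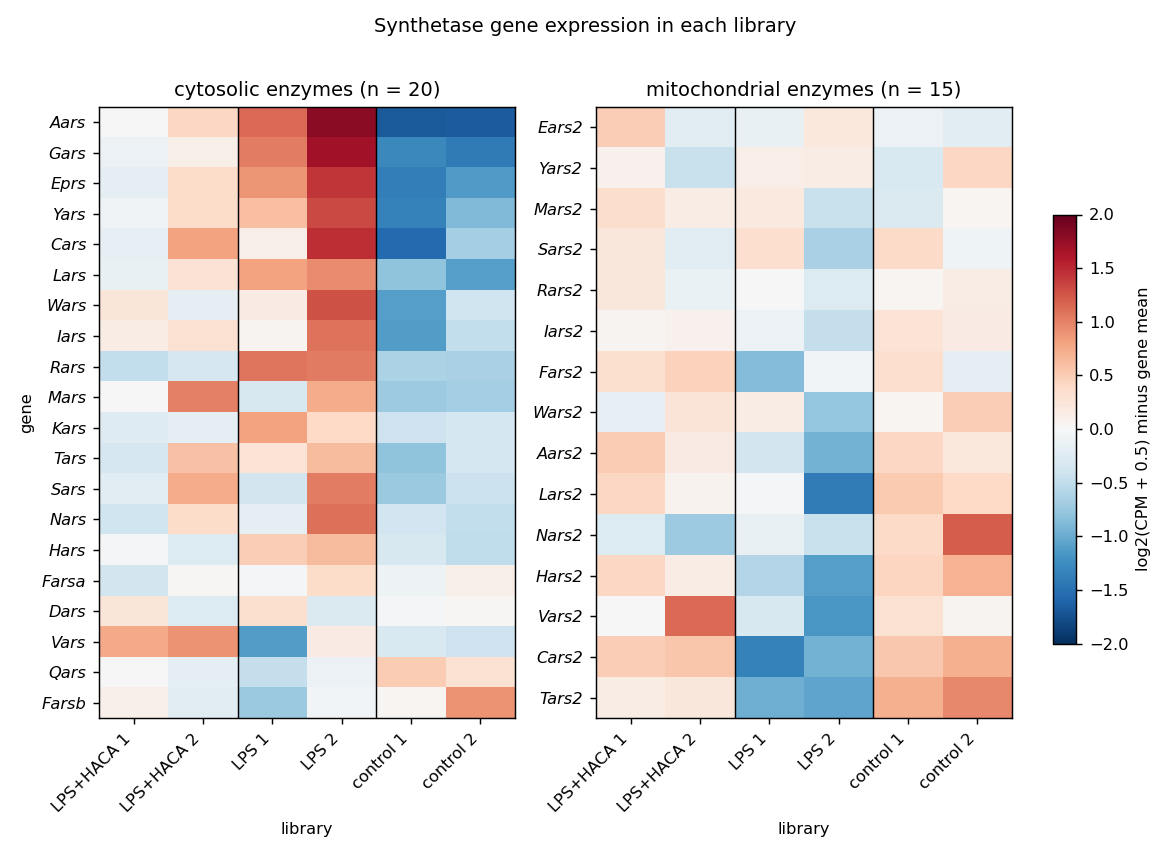
Heat map of log2(CPM + 0.5) minus the gene's mean over 6 libraries, with genes down the page (20 cytosolic, left; 15 mitochondrial, right; ordered by their LPS over control fold change) and libraries across (LPS+HACA, LPS, control). In the upper rows of the cytosolic panel the LPS libraries are darkest red and the control libraries blue, and in the lowest rows of the mitochondrial panel the LPS libraries are blue.

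Of the 8 enzymes of the multisynthetase complex, 5 rose, where 15.9% of all genes tested were called higher. Eprs, on chromosome 1 (185363044 to 185428360, GRCm38), encodes the enzyme that charges both glutamate and proline tRNAs. It had 333 and 486 CPM in LPS libraries, against 68.6 and 81.9 CPM in control libraries, which is a log2 fold change of 2.44 ± 0.29 with its standard error (SE) and an adjusted p = 0.000948. Both LPS libraries lay far above both control libraries. Rars, the arginine enzyme (chromosome 11, 35808381 to 35834506), had 132 and 130 CPM in LPS and 40.1 and 40.0 CPM in control, a log2 fold change of 1.71 ± 0.21 (adjusted p = 0.00102). Lars, the leucine enzyme, which is also known as a leucine sensor upstream of the growth kinase mTORC1, had 35.6 and 39.2 CPM in LPS and 11.2 and 9.13 CPM in control (1.88 ± 0.27; adjusted p = 0.00202). In both genes the replicates of a group lay close together and the groups did not overlap.

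Iars and Kars, the isoleucine and lysine enzymes, rose at far lower counts. Iars had 2.76 and 6.17 CPM in LPS, against 0.941 and 1.72 CPM in control (log2 fold change 1.74 ± 0.51; adjusted p = 0.0356), and Kars had 4.73 and 3.47 CPM, against 1.76 and 1.85 CPM (1.18 ± 0.38; adjusted p = 0.0473). Own bases made up 16.2% of the exonic bases of Iars and 50.2% of those of Kars. The call on Iars was lost without control replicate 1 (adjusted p = 0.214), control replicate 2 (0.083), LPS replicate 2 (0.174) or LPS+HACA replicate 1 (0.0525), which also enters the shared fit, and with library totals (0.115), one transcript per gene (0.0662) or coding transcripts alone (0.161). That on Kars was lost without any library but LPS replicate 2 (adjusted p between 0.0819 and 0.217), and with library totals (0.298), no low-count filter (0.0767) or DESeq2 (0.0572). The other complex members did not pass: Dars, the aspartate enzyme, had 78.0 and 50.8 CPM in LPS and 60.9 and 62.8 CPM in control (0.06 ± 0.28; adjusted p = 0.903). Qars, the glutamine enzyme, had 2.36 and 3.18 CPM in LPS and 5.14 and 4.43 CPM in control (-0.79 ± 0.35; adjusted p = 0.127), lower in both LPS libraries. Mars, the methionine enzyme, had 1.08 and 2.79 CPM in LPS and 0.690 and 0.728 CPM in control (1.44 ± 0.65; adjusted p = 0.133). Its exons overlap those of Ddit3 on the opposite strand, and 13.4% of its exonic bases were its own. The median log2 fold change was 1.57 over the 8 complex members, and over the 12 genes outside the complex, of which 6 rose, it was 1.119.

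Outside the complex, the alanine and glycine enzymes gave the largest changes of any member. Aars (chromosome 8, 111033144 to 111057664), which charges alanine tRNA, had 529 and 837 CPM in LPS libraries, against 75.0 and 75.5 CPM in control libraries. Its log2 fold change was 3.18 ± 0.29 (adjusted p = 0.000349), the largest among the 35 members tested. Gars (chromosome 6, 55038007 to 55079500), which makes both the cytosolic and the mitochondrial glycine enzyme, had 402 and 635 CPM in LPS, against 80.2 and 73.7 CPM in control (2.75 ± 0.27; adjusted p = 0.000476). In both genes the control libraries were nearly equal, and LPS replicate 2 stood above LPS replicate 1. Yars, the tyrosine enzyme, had 55.6 and 91.4 CPM in LPS, against 13.9 and 19.4 CPM in control (2.14 ± 0.33; adjusted p = 0.0028). Cars, the cysteine enzyme, had 22.6 and 59.1 CPM in LPS, against 6.78 and 12.8 CPM in control (2.06 ± 0.57; adjusted p = 0.0335). The groups did not overlap for either, but the Cars libraries of each group spread widely, and its call was lost without control replicate 1 (adjusted p = 0.163), control replicate 2 (0.0651) or LPS replicate 2 (0.168), with library totals (0.0665) and with one transcript per gene (0.0578). Cars and Yars each overlap another gene on the opposite strand, the pseudogene Gm15580 and C77080.

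Wars, the tryptophan enzyme, known as an interferon-induced gene in human cells, had 2.96 and 6.94 CPM in LPS, against 0.941 and 1.85 CPM in control (1.82 ± 0.55; adjusted p = 0.0381). Own bases made up 17.8% of its exonic bases, and the call was lost without control replicate 1 (adjusted p = 0.22), control replicate 2 (0.0816), LPS replicate 2 (0.188) or LPS+HACA replicate 1 (0.0503), and with library totals (0.119). Hars, the histidine enzyme, had 66.5 and 73.9 CPM in LPS, against 38.0 and 33.2 CPM in control (0.98 ± 0.22; adjusted p = 0.0135), the smallest change among the 11 that rose. Its call was lost without control replicate 1 (adjusted p = 0.0827) or control replicate 2 (0.125) and with scaling by library totals (0.284). Sars, Tars and Nars, the serine, threonine and asparagine enzymes, had log2 fold changes of 1.10, 1.14 and 1.07 with adjusted p of 0.139, 0.0776 and 0.115, and none of the 3 passed. Sars shows the spread behind such a value, with 11.1 and 30.1 CPM in LPS and 8.53 and 10.7 CPM in control. Vars, the valine enzyme, differed by 0.03 ± 0.61, and Farsa, a subunit of the phenylalanine enzyme, by 0.18 ± 0.29. Farsb, the other subunit, had 0.887 and 1.73 CPM in LPS and 1.88 and 3.84 CPM in control (-1.12 ± 0.54; adjusted p = 0.157), the lowest value of the cytosolic set.

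**Figure D2:**
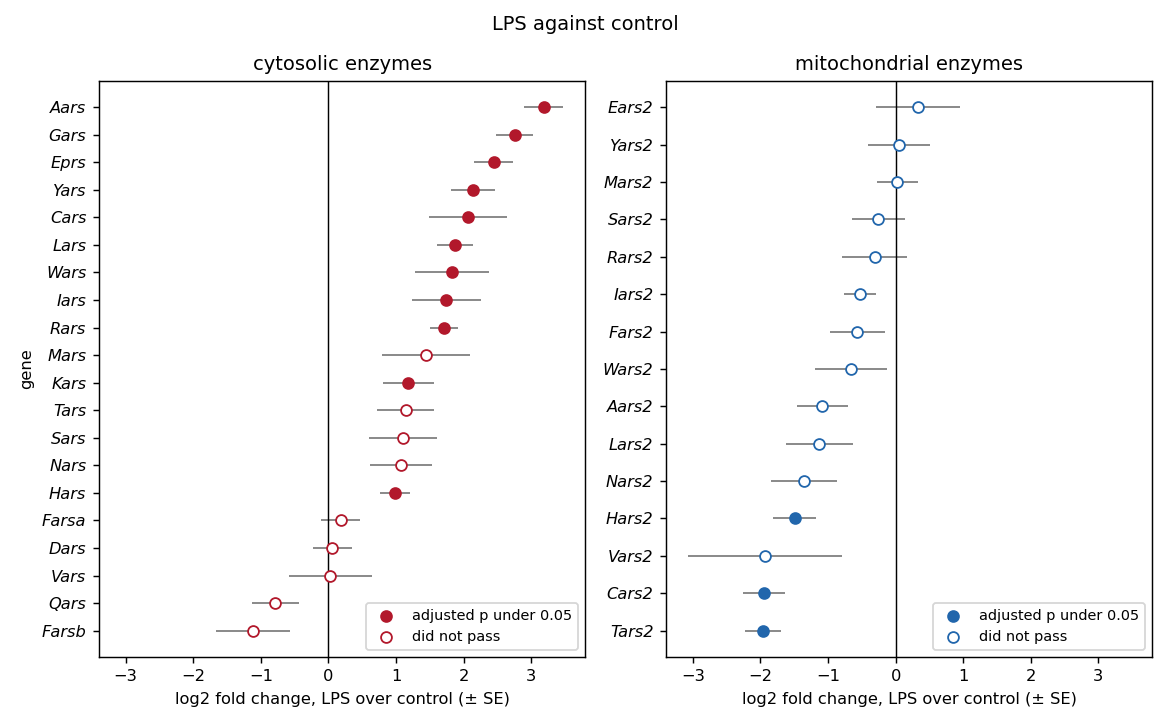
Log2 fold change of LPS over control for 20 cytosolic genes (left) and 15 mitochondrial genes (right), with bars for ± 1 SE; filled points passed the adjusted p of 0.05 and open points did not. Filled cytosolic points run between 0.98 (Hars) and 3.18 (Aars), and the 3 filled mitochondrial points, Hars2, Cars2 and Tars2, lie between -1.96 and -1.50.

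The 3 mitochondrial genes that fell in LPS encode the enzymes for threonine, cysteine and histidine. Tars2 (chromosome 3, 95739976 to 95760206), the mitochondrial threonine enzyme, had 4.63 and 4.33 CPM in LPS libraries, against 15.9 and 19.1 CPM in control libraries, a log2 fold change of -1.96 ± 0.27 (adjusted p = 0.00167). Cars2 (chromosome 8, 11513977 to 11550783), the mitochondrial cysteine enzyme, had 2.07 and 2.89 CPM in LPS, against 9.03 and 10.2 CPM in control (-1.95 ± 0.31; adjusted p = 0.00328). Hars2, the mitochondrial histidine enzyme, had 4.73 and 3.18 CPM in LPS, against 10.1 and 12.2 CPM in control (-1.50 ± 0.32; adjusted p = 0.0108). In each of the 3 genes both LPS libraries lay below both control libraries. The Hars2 call was lost without control replicate 2 (adjusted p = 0.089). Hars2 and Hars stand head to head on opposite strands of chromosome 18 and share 195 bases; the handling of strand in the counting is not given in the sources used here, and Hars rose while Hars2 fell. Cars2 overlaps Naxd on the opposite strand in the same way.

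The other mitochondrial genes did not pass, and their log2 fold changes ran between -1.93 for Vars2 and 0.33 for Ears2, which charges mitochondrial glutamate tRNA. Nars2 and Aars2 came closest, with 1.77 and 1.35 CPM for Nars2 in LPS against 2.76 and 5.29 CPM in control (-1.36; adjusted p = 0.0679). Aars2, the mitochondrial alanine enzyme, had 2.96 and 1.83 CPM in LPS against 5.46 and 4.70 CPM in control (-1.08; adjusted p = 0.0618). Iars2 and Mars2, the most highly counted mitochondrial genes in LPS, did not pass either: Iars2 had 24.8 and 19.4 CPM in LPS and 33.0 and 30.5 CPM in control (-0.52; adjusted p = 0.131). Mars2 had 16.4 and 10.3 CPM in LPS and 11.5 and 14.7 CPM in control (0.02; adjusted p = 0.963), with overlapping groups. The remaining 8, Lars2, Fars2, Wars2, Rars2, Sars2, Yars2, Ears2 and Vars2 were measured at 12.9 CPM or less in every library. Pars2, the mitochondrial proline enzyme, had too few counts to test: 3 and 0 in LPS+HACA, 0 in both LPS libraries, and 7 and 14 in control. The control level of Pars2 stood 4.63-fold above a floor of 3 counts over the LPS group. That floor covers counting error in LPS only, and the error of the 21 control counts is not included.

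**Figure D3:**
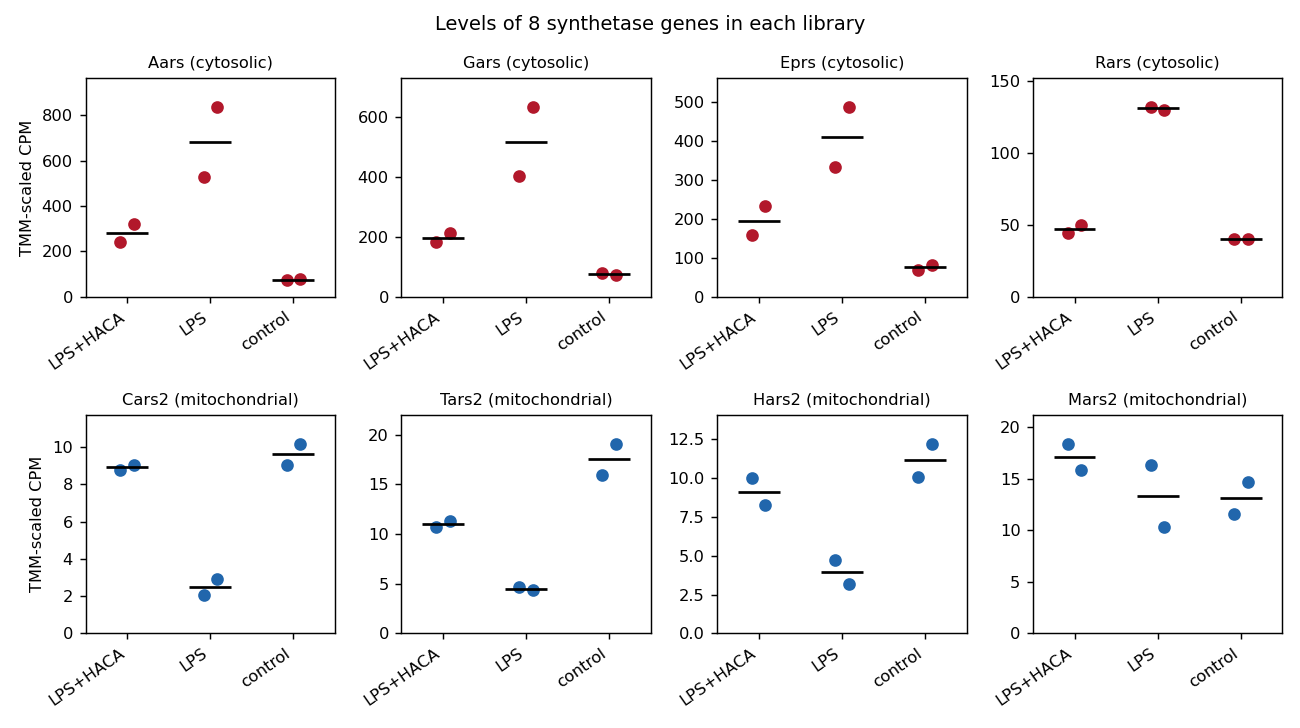
TMM-scaled CPM of 8 members in every library (points; bars are group means; axes start at 0), for LPS+HACA, LPS and control. Aars, Gars, Eprs and Rars are highest in both LPS libraries, Cars2, Tars2 and Hars2 are lowest there, and the groups overlap for Mars2.

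For 13 amino acids a cytosolic and a separate mitochondrial gene were both tested, which sets enzymes of the same chemistry side by side. In 13 of 13 pairs the cytosolic gene had the higher log2 fold change of LPS over control, with a median difference of 2.43. The smallest difference was 1.35, between Sars (1.10) and Sars2 (-0.26), and the largest was 4.27, between Aars (3.18) and Aars2 (-1.08). For Cars and Cars2 the difference was 4.01, and for Tars and Tars2 3.11. With 0 mitochondrial genes called higher and 0 cytosolic genes called lower, no pair could have both genes rise or both fall past the test. Without LPS replicate 2 the cytosolic gene was higher in 12 of 13 pairs, with a median difference of 1.70. With scaling by library totals it was higher in 13 of 13, with a median of 2.37. These differences are given as a description, with no test across pairs, since pairs of genes are not replicates.

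**Figure D4:**
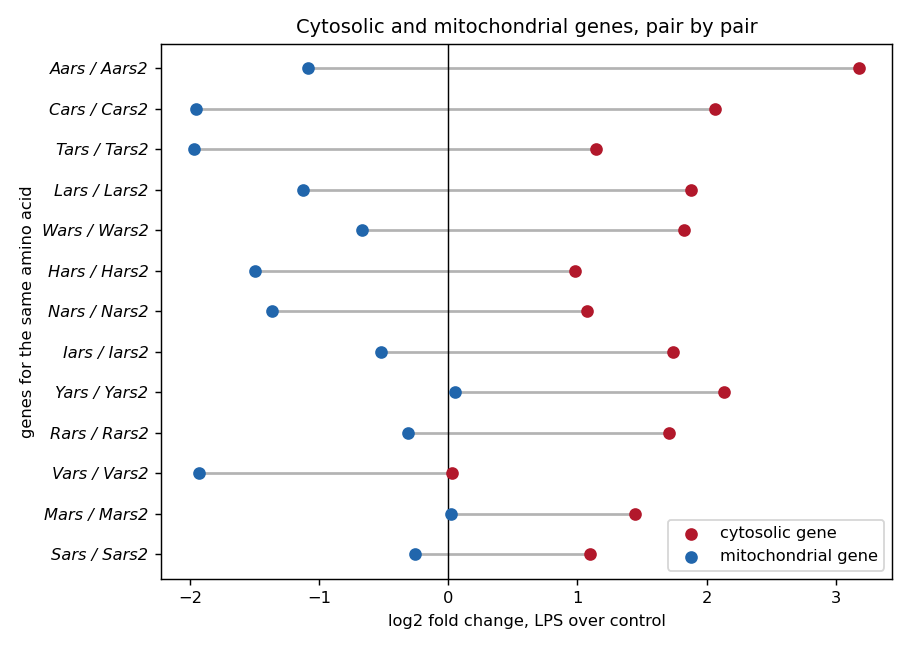
Log2 fold change of LPS over control of the cytosolic gene (red) and the mitochondrial gene (blue) for the same amino acid in 13 pairs, joined by a grey line and ordered by their difference. The red point lies to the right in 13 of 13 pairs, and the differences run between 1.35 (Sars and Sars2) and 4.27 (Aars and Aars2).

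Levels per length were compared where a protein-coding transcript had at least 500 own bases, which held for 8 cytosolic and 9 mitochondrial genes. The coding transcript with the most own bases was used, so each value is that of 1 transcript and not of the whole gene. On the scale of CPM per kilobase of own sequence, the cytosolic median was 107 in LPS and 34.1 in control, and the mitochondrial median was 1.74 in LPS and 2.47 in control. In control macrophages Gars (45.4 ± 2.60 CPM per kilobase, SD, n = 2), Rars (42.7 ± 0.716), Iars2 (38.8 ± 3.45), Dars (37.5 ± 0.676), Hars (37.0 ± 3.41), Eprs (31.2 ± 3.12) and Aars (28.8 ± 0.185) lay within a narrow band. Iars2, Dars and Hars did not differ beyond their spread, nor did Eprs and Aars. Yars followed at 10.3 ± 2.33, and the Sars transcript used, Sars-201, stood at 1.65 ± 0.400. That value is not the level of the gene. Over all libraries Sars-201 held 397 counts on 1747 own bases, and another coding transcript, Sars-202, held 242 on 72. Iars2 was the one mitochondrial gene in the band of the cytosolic enzymes, and the next, Sars2, stood at 8.0 ± 2.36. In LPS the band opened: Gars reached 307 ± 96.3 and Aars 264 ± 83.3 CPM per kilobase, which did not differ beyond their spread. Eprs followed at 172 ± 29.7, Rars at 141 ± 0.132, Hars at 73.1 ± 5.95 and Yars at 57.3 ± 16.7, while Dars stood at 39.7 ± 11.8 and Iars2 at 30.0 ± 6.45.

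Which transcripts carried the counts differed between members. Protein-coding transcripts held most counts of 8 of the 20 cytosolic and 9 of the 16 mitochondrial genes, among them 98.3% of the counts of Aars, 98.6% of Gars, 98.8% of Hars, 90.3% of Rars, 69.8% of Eprs and 68.3% of Lars. They held 0 counts of Farsa, Mars, Qars, Wars, Cars2 and Rars2. Their share was 0.765% in Tars, 10.6% in Cars, 14.8% in Nars, 16.1% in Kars and 19.4% in Iars. It was 2.5% in Ears2, 5.97% in Vars2, 7.27% in Lars2 and 43.7% in Tars2. For these genes the values rest mostly on retained-intron and other non-coding transcripts. Coding transcripts of Kars averaged 0.440 CPM in LPS and 0.416 CPM in control, and its other transcripts 3.66 and 1.39 CPM. When coding transcripts alone were fitted, an alternative chosen after the data were seen, 14 cytosolic and 10 mitochondrial genes could be tested, and 8 cytosolic genes were higher and 2 mitochondrial genes lower in LPS. Among members with at least 50 counts of each kind, coding and other transcripts differed from control in the same direction in LPS for 10 of 12 cytosolic genes, the exceptions being Dars and Vars, and for 6 of 6 mitochondrial genes. The ratio of LPS to control was larger for coding than for other transcripts in 11 of these 12 cytosolic and 5 of these 6 mitochondrial genes. The coding share of Lars was 79.0% in LPS and 58.0% in control, and that of Yars was 82.4% in LPS and 65.3% in control.

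The replicates of the LPS group were not alike. Of the 20 cytosolic genes, 17 were higher in LPS replicate 2 than in LPS replicate 1, with a median ratio of 1.58, and their CPM summed to 2507 in replicate 2 and 1708 in replicate 1. Of the 15 mitochondrial genes tested, 4 were higher in LPS replicate 2, with summed values of 60.7 in replicate 2 and 83.6 in replicate 1. In LPS+HACA, 15 of the 20 cytosolic genes were higher in replicate 2 (median ratio 1.256), and in control 13 were (median ratio 1.05). Marker genes of other cells also separated the libraries. Neutrophil markers summed to 4.74 and 33.0 CPM in LPS+HACA replicates 1 and 2, to 12.7 and 60.3 CPM in LPS and to 6.84 and 34.9 CPM in control, and so were higher in replicate 2 of each group. Stromal markers summed to 49.7 and 1.35 CPM in LPS+HACA, to 32.2 and 1.93 CPM in LPS and to 47.1 and 1.72 CPM in control, and were higher in replicate 1. The 6 cycling-cell markers summed to 1325 and 331 CPM in LPS+HACA, 1824 and 1004 CPM in LPS, and 654 and 142 CPM in control, and 0 of 6 passed the test between LPS and control. The 5 dendritic cell markers summed to 11.0 and 13.7 CPM in LPS+HACA, 39.2 and 48.4 CPM in LPS, and 8.78 and 9.59 CPM in control. In LPS 2 of these 5 rose, where 15.9% of all genes tested were called higher. B and plasma cell markers summed to 13.7 and 8.25 CPM in LPS+HACA, 3.15 and 3.76 CPM in LPS, and 12.04 and 13.56 CPM in control. The part of these cells in the synthetase results was not tested.

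Among genes that work beside the synthetases, the scaffold gene Eef1e1 rose in LPS and 4 genes of tRNA charging companions fell. Of the scaffold proteins of the multisynthetase complex, Eef1e1 (AIMP3) had 30.3 and 29.5 CPM in LPS, against 6.52 and 6.75 CPM in control (log2 fold change 2.17 ± 0.24; adjusted p = 0.000752), whereas Aimp1 had a log2 fold change of -0.90 (adjusted p = 0.107) and Aimp2 had too few counts to test. Of 13 genes of tRNA charging companions and proofreading, 0 rose and 4 fell in LPS (median log2 fold change -0.78). Over all genes tested, 15.9% were called higher and 14.3% lower. At an unadjusted p under 0.05, 1 of the 13 companion genes was higher, and DESeq2 called 1 higher. Gatc, a subunit of the amidotransferase that makes mitochondrial glutamine tRNA from the mischarged glutamate form, had 19.7 and 18.2 CPM in LPS, against 53.9 and 54.7 CPM in control (-1.52 ± 0.22; adjusted p = 0.00195). Its partner subunits Gatb (-0.78; adjusted p = 0.295) and Qrsl1 (-0.28; adjusted p = 0.577) did not pass. Mtfmt, which formylates the mitochondrial initiator tRNA, fell by 1.62 on the log2 scale (adjusted p = 0.00842). Pstk, a kinase of the selenocysteine pathway, fell by 1.85 (adjusted p = 0.0088), and Dtd2, a deacylase that removes wrongly attached amino acids from tRNA, fell by 1.45 (adjusted p = 0.0398). Pstk overlaps Ikzf5 on the opposite strand.

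Among translation factors, Eef1a1 rose and Gfm2 and Mtif3 fell. Of 6 cytosolic elongation factors, 1 rose, Eef1a1, which delivers charged tRNA to the ribosome, by 0.72 on the log2 scale (adjusted p = 0.0323), and 0 fell (also 0 at an unadjusted p under 0.05 and 0 with DESeq2), where 15.9% of all genes tested were called higher. Of 9 mitochondrial translation factors, 0 rose, also at an unadjusted p under 0.05 and with DESeq2. In this list 2 fell, Gfm2 (-0.97; adjusted p = 0.0331) and the initiation factor gene Mtif3 (-1.38; adjusted p = 0.0488), where 14.3% of all genes tested were called lower. Both counts stood near those shares. Mtif3 overlaps Gtf3a on the opposite strand. The lists' medians were 0.50 and -0.66.

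Most genes of the amino acid stress response rose in LPS. Of 19 genes of the GCN2 and ATF4 pathway that could be tested, 13 rose and 1 fell in LPS. Their median log2 fold change was 2.24. Over all genes tested, 15.9% were called higher and 14.3% lower. Trib3, a pseudokinase that ATF4 induces, had 111 and 275 CPM in LPS, against 1.94 and 2.51 CPM in control (6.43 ± 0.56; adjusted p = 0.000349). Mthfd2, a mitochondrial folate enzyme, had 162 and 233 CPM in LPS, against 10.5 and 7.61 CPM in control (4.45 ± 0.32; adjusted p = 0.000163). Atf3 (2.20; adjusted p = 0.0012) and Nupr1 (2.92; adjusted p = 0.00148), both transcriptional regulators of stress, rose as well. Atf4 itself had 13.6 and 29.1 CPM in LPS and 8.59 and 11.9 CPM in control (1.06 ± 0.40; adjusted p = 0.0778) and did not pass. Eif2ak4, which encodes the kinase GCN2, was the member that fell, with 2.27 and 1.35 CPM in LPS against 5.90 and 3.84 CPM in control (-1.43 ± 0.42; adjusted p = 0.0347). Of 11 amino acid transporters tested, 6 rose and 2 fell, and the count that fell stood near the share over all genes. Slc7a5, the large neutral amino acid transporter, had 258 and 621 CPM in LPS, against 8.59 and 7.61 CPM in control (5.76; adjusted p = 0.000324), and Slc7a1, which imports arginine and other cationic amino acids, rose by 5.03 (adjusted p = 0.000649). Slc36a1, a proton-coupled transporter of small amino acids, fell by 3.94 (adjusted p = 0.000319), and Slc43a2, another transporter of large neutral amino acids, fell by 3.56 (adjusted p = 0.0019). Slc43a2 overlaps an antisense gene, Gm45606.

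**Figure D5:**
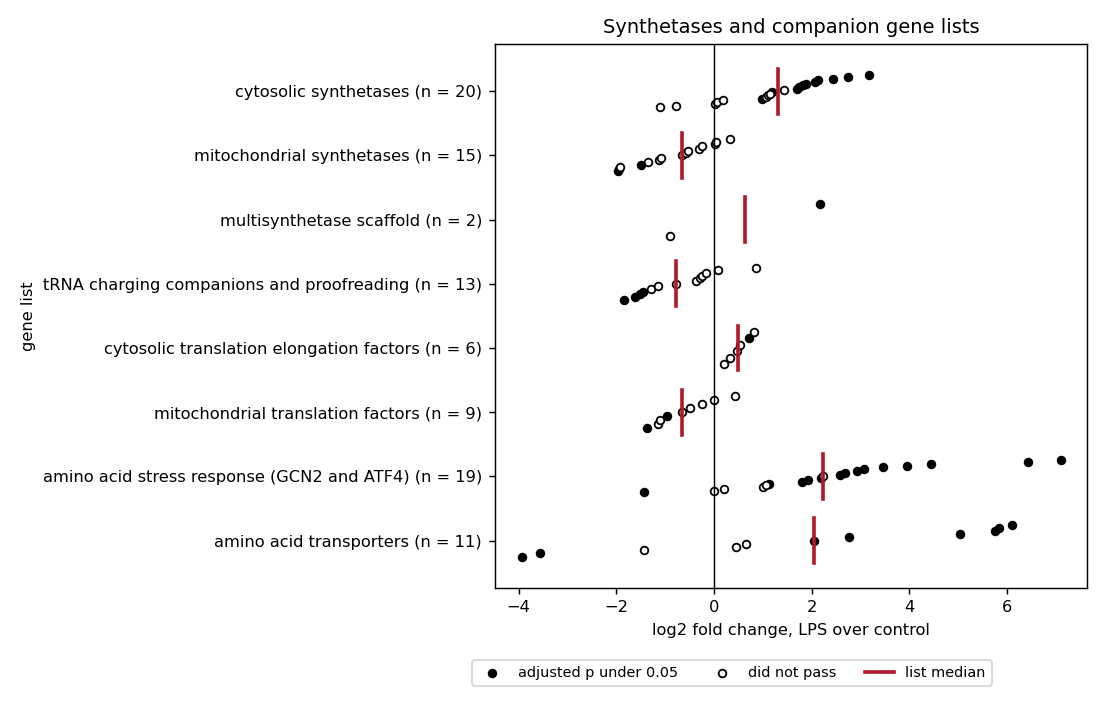
Log2 fold change of LPS over control for each tested gene of the synthetase sets and of 6 companion lists (points; filled where the adjusted p was under 0.05; red bars are list medians). Medians are 1.31 for cytosolic and -0.66 for mitochondrial synthetases, -0.78 for tRNA charging companions, -0.66 for mitochondrial translation factors, 2.24 for the amino acid stress response and 2.04 for amino acid transporters.

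Between LPS+HACA and LPS, 7 synthetase genes passed the test, 4 cytosolic ones that were lower in LPS+HACA and 3 mitochondrial ones that were higher. Of the 20 cytosolic genes, 0 were higher and 4 were lower in LPS+HACA than in LPS, where 5.74% of all genes tested were called higher and 7.67% lower. Of the 15 mitochondrial genes tested, 3 were higher and 0 lower. At an unadjusted p under 0.05, 1 cytosolic gene was higher and 8 lower, and 5 mitochondrial genes were higher and 0 lower, while DESeq2 called 0 cytosolic genes higher and 6 lower, and 3 mitochondrial genes higher and 0 lower. The median log2 fold change was -0.57 over the cytosolic genes, which turned to 0.12 with library totals, and 0.40 over the mitochondrial genes (1.003 with library totals). Without LPS replicate 2 the cytosolic median was -0.13, without LPS+HACA replicate 1 it was -0.34, and without LPS replicate 1 the mitochondrial median was 0.94. The other single omissions gave cytosolic medians between -0.84 and -0.56 and mitochondrial medians between 0.40 and 0.71. Over all genes the median was 0.06, or 0.70 with library totals. This comparison uses the same LPS libraries as the one between LPS and control, so values far out in those libraries move both, and the 2 comparisons are not independent.

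Rars, the arginine enzyme, had 44.5 and 49.6 CPM in LPS+HACA, against 132 and 130 CPM in LPS, a log2 fold change of -1.47 ± 0.21 (adjusted p = 0.00682). Gars had 181 and 214 CPM in LPS+HACA, against 402 and 635 CPM in LPS (-1.39 ± 0.26; adjusted p = 0.0155). Aars had 239 and 319 CPM, against 529 and 837 CPM (-1.29 ± 0.27; adjusted p = 0.0217). Eprs had 159 and 231 CPM, against 333 and 486 CPM (-1.07 ± 0.28; adjusted p = 0.0416). In each of the 4 genes the groups did not overlap. Rars in LPS+HACA stood near its control level of 40.1 and 40.0 CPM, whereas Aars, Gars and Eprs lay between their LPS and control levels. Lars (-0.80; adjusted p = 0.0807), Hars (-0.72; adjusted p = 0.068) and Yars (-0.85; adjusted p = 0.116), which rose in LPS, did not pass here, and Vars had the highest value of the cytosolic set, with 3.16 and 3.52 CPM in LPS+HACA and 0.493 and 1.93 CPM in LPS (1.45 ± 0.58; adjusted p = 0.138). Without LPS+HACA replicate 1 the adjusted p of Rars, Gars, Aars and Eprs was 0.0673, 0.112, 0.152 and 0.247, and without LPS+HACA replicate 2 it was 0.063 for Gars, 0.0612 for Aars and 0.076 for Eprs, so these calls were lost. With scaling by library totals Aars (0.0845), Eprs (0.247) and Gars (0.051) lost theirs as well. Aars and Eprs also lost theirs without control replicate 1 (0.0587 and 0.0913) or control replicate 2 (0.06 and 0.0932), and Eprs without LPS replicate 2 (0.103).

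Among mitochondrial genes, Cars2 had 8.75 and 9.06 CPM in LPS+HACA, against 2.07 and 2.89 CPM in LPS, a log2 fold change of 1.84 ± 0.31 (adjusted p = 0.0116). Tars2 had 10.7 and 11.3 CPM in LPS+HACA, against 4.63 and 4.33 CPM in LPS (1.29 ± 0.27; adjusted p = 0.0209). Hars2 had 10.02 and 8.25 CPM, against 4.73 and 3.18 CPM (1.21 ± 0.32; adjusted p = 0.0452). These are the same 3 genes that fell in LPS, and their groups did not overlap. Vars2 had the highest fitted value, 2.65, from 0.607 and 1.96 CPM in LPS+HACA and 0.394 and 0 CPM in LPS, and did not pass (adjusted p = 0.149). Without LPS+HACA replicate 1 the adjusted p of Cars2, Tars2 and Hars2 was 0.0632, 0.103 and 0.207, and without LPS+HACA replicate 2 it was 0.059, 0.11 and 0.121. Tars2 and Hars2 also lost their calls without control replicate 1 (0.0591 and 0.101) or control replicate 2 (0.0647 and 0.107), and Hars2 without LPS replicate 2 (0.113).

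The calls between LPS+HACA and LPS were less firm than those between LPS and control. Without LPS+HACA replicate 1, 0 cytosolic genes were lower and 0 mitochondrial genes were higher, and without LPS+HACA replicate 2 the counts were 1 and 0. Without control replicate 1 or control replicate 2, which enter through the shared estimate of spread, 2 cytosolic genes were lower and 1 mitochondrial gene was higher. Without LPS replicate 1 the counts were 6 and 6, and without LPS replicate 2 they were 3 and 2. In 13 of 13 amino acid pairs the cytosolic gene had the lower log2 fold change of LPS+HACA over LPS, with a median difference of -1.27. Without LPS replicate 2, it was the lower in 9 of 13 pairs, with a median of -0.10, and without LPS+HACA replicate 1 in 9 of 13, with a median of -1.30.

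Of the companion genes, Eef1e1, 3 stress response genes and 4 transporters were lower in LPS+HACA than in LPS. Gatc, Mtfmt, Pstk and 2 transporters were higher. Over all genes tested, 5.74% were called higher and 7.67% lower. Eef1e1 had 10.6 and 10.2 CPM in LPS+HACA, against 30.3 and 29.5 CPM in LPS (-1.52 ± 0.24; adjusted p = 0.00906). Gatc (1.04; adjusted p = 0.0203), Mtfmt (1.60; adjusted p = 0.0205) and Pstk (1.71; adjusted p = 0.0258) were higher in LPS+HACA than in LPS, and 0 of the 13 companion genes were lower, also at an unadjusted p under 0.05 and with DESeq2. Of 19 genes of the amino acid stress response, 0 were higher (1 at an unadjusted p under 0.05, 0 with DESeq2) and 3 were lower: Mthfd2 (-1.45; adjusted p = 0.0179), Atf3 (-1.45; adjusted p = 0.0153) and Psat1, a serine synthesis enzyme (-1.71; adjusted p = 0.0304). Of the transporters, 2 were higher, Slc36a1 (2.07; adjusted p = 0.00919) and Slc43a2 (2.96; adjusted p = 0.011), and 4 were lower, among them Slc7a5 (-1.90; adjusted p = 0.0262) and Slc7a1 (-1.98; adjusted p = 0.0285).

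Between LPS+HACA and control, Aars was the one member that passed the test. It had 239 and 319 CPM in LPS+HACA, against 75.0 and 75.5 CPM in control, a log2 fold change of 1.89 ± 0.28 (adjusted p = 0.0242). So 1 of 20 cytosolic genes was called higher, where 0.894% of all genes tested were, and 0 of 20 were called lower, where 0.257% were. Of the 15 mitochondrial genes tested, 0 were higher and 0 lower. At an unadjusted p under 0.05, 9 cytosolic genes were higher and 0 lower, and 0 mitochondrial genes were higher and 2 lower, and DESeq2 called 5 cytosolic genes higher and no other member. Gars, with a log2 fold change of 1.36 (adjusted p = 0.0623), and Eprs, with 1.37 (adjusted p = 0.0728), came closest after Aars. With the replicate number entered in the fit as a block, more cytosolic genes passed, as given in the closing section. The median log2 fold change was 0.94 over the cytosolic genes and -0.15 over the mitochondrial genes, beside 0.00 over all genes. Without LPS+HACA replicate 2 the cytosolic median was 0.61. In 13 of 13 amino acid pairs the cytosolic gene had the higher log2 fold change of LPS+HACA over control, with a median difference of 1.39, and without LPS+HACA replicate 2 in 12 of 13. The call on Aars was lost without control replicate 1 (adjusted p = 0.291), control replicate 2 (0.28) or LPS+HACA replicate 2 (0.109). Of the amino acid stress response, 2 of 19 genes were higher in LPS+HACA than in control, Trib3 (5.06; adjusted p = 0.0115) and Mthfd2 (3.0; adjusted p = 0.00954). Of 11 amino acid transporters tested, 2 were higher, Slc7a5 (3.86; adjusted p = 0.0147) and Slc7a1 (3.05; adjusted p = 0.0311). In the same list 1 was lower, Slc36a1 (-1.87; adjusted p = 0.0387).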

How the data were processed

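Poly-A RNA of 6 BMDM libraries was sequenced as TruSeq libraries, per the labels' protocols. STAR 2.5.4b, DESeq2 1.26.0, edgeR 3.28.1, limma, CASAVA and Trim Galore are named, with GRCm38 and GRCh38, in the submitters' processing notes. The authors deposited raw counts for 142647 transcripts and FPKM values, per the file headers; the counting program is not given in the sources used here. Counts of 141524 transcripts were summed into 55263 genes (GENCODE vM21); unmatched rows held at most 0.115% of a library. Genes were filtered with filterByExpr, scaled by TMM and fitted with edgeR 4.0.16 (R 4.3.3) in one quasi-likelihood model of 6 libraries with 3 residual degrees of freedom, adjusted over 17113 genes at 0.05. The SE was taken from the test, as the size of the log2 fold change over the root of F. The deposited FPKM values gave the direction of the fit for 34 of 35 members in LPS against control. The symbol Mars1 was matched to Mars. Named genes are the members past the threshold or at the extreme of their class, and, of companion lists, scaffold and amidotransferase genes and up to 4 others by adjusted p. Members, lists and rules were chosen with earlier results of these data known. The procedure was tested on simulated data. Near-identical copies were searched with BLAST 2.17.0: Iars shares 1656 bases at 96.0% identity with Gm4849, which held 9 counts. Alternatives were library totals, no filter, DESeq2 1.42.0, a replicate block, one transcript per gene, coding transcripts only and each library left out.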

Additional observations from a re-analysis of the deposited data

How the results depend on the processing

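Aars, Eprs, Gars, Lars, Rars, Yars and Tars2 passed in LPS against control under each of 12 alternatives, and Cars2 under the 11 that gave it a value. No called member changed sign: 67 of 1221 alternative values of single members changed sign, none of them with a call. With library totals, 6 cytosolic genes were higher and 2 lower and 8 mitochondrial genes lower in LPS against control (1417 genes higher and 5111 lower over all genes); in LPS+HACA against LPS, 1 cytosolic gene was higher, 1 lower and 6 mitochondrial genes higher (3501 higher, 522 lower); in LPS+HACA against control, 2 cytosolic genes were higher (24 lower over all genes). Without the low-count filter, 6 mitochondrial genes were lower in LPS, 1845 genes were higher in LPS+HACA than in LPS, and against control 6 cytosolic genes were higher and 1 mitochondrial gene lower (661 genes higher, 250 lower). With DESeq2, 5 cytosolic genes were higher in LPS+HACA than in control (467 genes higher, 199 lower), and with one transcript per gene 2 were. With coding transcripts only, chosen after seeing the data, 1447 genes were higher and 1241 lower in LPS; 0 mitochondrial genes were higher in LPS+HACA than in LPS (407 genes higher, 638 lower); and 0 cytosolic genes were higher in LPS+HACA than in control (55 genes higher, 12 lower).

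The replicate numbers mark no stated pairing. Deviations of same-numbered libraries correlated at 0.31 (LPS and control), 0.51 (LPS+HACA and control) and 0.50 (LPS+HACA and LPS), with 2 numbers a group. With the number as a replicate block, 5 mitochondrial genes were lower in LPS; 7 cytosolic genes were lower in LPS+HACA than in LPS (1955 genes higher, 2356 lower); and 6 cytosolic genes were higher in LPS+HACA than in control (628 genes higher, 307 lower).

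Leaving out 1 library at a time, cytosolic genes higher in LPS ran between 6 (without either control library) and 13, mitochondrial genes lower between 2 and 5, and all genes between 1190 and 3024 higher and between 916 and 2817 lower. In LPS+HACA against LPS, cytosolic genes higher ran between 0 and 1 and lower between 0 and 6, mitochondrial genes higher between 0 and 6, and all genes between 152 and 1617 higher and between 216 and 1793 lower. In LPS+HACA against control, cytosolic genes higher ran between 0 and 4, and all genes between 0 and 420 higher and between 0 and 186 lower. A group left with 1 library was assumed to vary like the others. Pars2 had too few counts to test at this depth.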
